A study of Mus musculus with 8 samples.

Results

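Among 45328 quality-filtered cells of the mouse femur, 225 cells (0.496%) carried the pericyte transcript Rgs5 with almost no smooth muscle myosin. These members were chosen by their own measured counts of unique molecular identifiers (UMIs), each of which stands for 1 captured transcript. A member held at least 3 UMIs of Rgs5 and at most 1 of Myh11, none of the endothelial gene Cdh5 or the leukocyte gene Ptprc, and at most 1 of the marrow stromal gene Adipoq. Of every 10000 UMIs, fewer than 100 came from the osteocalcin genes Bglap and Bglap2 and fewer than 40 from the cartilage genes Acan, Hapln1 and Matn3. Levels of these genes in the members are therefore a description of the choice and carry no test. The Control preparations gave 41 and 19 members and the Fracture preparations 82 and 83.

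The study profiled bone stromal cells of C57BL/6 females by droplet sequencing, to learn how the cells of bone change while a fracture heals. In the Fracture group the left leg had been broken by bending at 10 weeks of age and held by a nail inside the marrow cavity, with the analgesic carprofen, and the femur was taken at day 14, when the mice were 12 weeks old. The Control group was unfractured wild-type females of 12 weeks, and both groups were depleted of lineage-positive, CD45 and CD117 cells with magnetic beads, so the blood cells left are what the beads missed. Each group held 2 cell preparations with 2 libraries apiece, 8 libraries in all, and the preparation was the unit of replication (n = 2 per group). The study's supplement calls the replicates of control and fracture independent. The sources used here do not say how many mice went into a preparation or whether preparations came from different mice. The p-values therefore measure only the spread between these preparations, which may be technical.

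Pericytes are mural cells that sit inside the basement membrane of capillaries, in contact with endothelial cells, and are recruited there by PDGF-B acting on the receptor Pdgfrb. They share Rgs5, a brake on G protein signalling, and the receptor Notch3 with smooth muscle cells of larger vessels, but carry less of the contractile machinery around Myh11. The inward rectifier channel made from Kcnj8 and its regulatory partner Abcc9, and the small mitochondrial protein Higd1b, are widely used to tell pericytes from other mural cells. In the marrow, perivascular cells also supply haematopoietic niche factors, and after injury mural cells can divide, secrete matrix and release chemokines.

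The name pericyte held for only part of these cells. Of 6 further markers, Higd1b, Npy1r, Pdgfrb, Notch3, Kcnj8 and Abcc9, 156 members had at least 2 detected and 37 had none. Among the members, 53 (10, 7, 12 and 24 in Control-1, Control-2, Fracture-1 and Fracture-2) held at least 10 UMIs per 10000 of Prg4, which encodes lubricin, the lubricating protein of joint linings and cartilage surfaces. Of these Prg4-high cells, 34 had none of the 6 markers, 17 had 1 and 2 had 2. The remaining cells divided into 154 with at least 2 markers and little Prg4, called marker-supported below (26, 11, 68 and 49 cells), and 18 with neither feature. Both limits were set after the data had been seen.

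By definition no cell is both Prg4-high and marker-supported, and their Prg4 and Rgs5 levels follow from the Prg4 limit and the rule. Median Rgs5 was 83.2 UMIs per 10000 in marker-supported cells and 6.01 in Prg4-high cells, so the latter passed the rule on few Rgs5 transcripts. Prg4 was absent from 162 members and stood at 50 or more UMIs per 10000 in 47, with 16 cells between. In counts per 1000000 summed UMIs (CPM), Prg4 was 39857 and 36185 in the Control and 38479 and 66376 in the Fracture preparations of the Prg4-high cells, against at most 10.1 in the marker-supported cells. The matrix glycoprotein Fn1 followed the same division, with 43052 and 27502 against 233 and 119.6 CPM in the Control preparations.

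Kcnj8, Abcc9, Higd1b, Steap4 and Vtn had no UMI in the Prg4-high cells of any preparation. Other pericyte genes were present in them. The proteoglycan gene Cspg4 was detected in 60% and 100% of Prg4-high cells in Control and 66.7% and 79.2% in Fracture. In marker-supported cells, which were shallower in every preparation, it was 46.2% and 54.5% in Control and 60.3% and 77.6% in Fracture. Ebf1 had 84 and 75 UMIs in Prg4-high cells of Control and 93 and 164 in Fracture. In marker-supported cells Kcnj8 was 436 and 339 CPM in Control and 229.8 and 258 in Fracture, and Higd1b 355 and 558 in Control and 175 and 219.9 in Fracture. The Prg4-high cells instead carried the growth factor Hbegf at 1952 and 3610.1 CPM in Control and 1725 and 2337 in Fracture, the hyaluronan synthase Has1 at 572 and 621 in Control and 869 and 754 in Fracture, and the chloride channel protein Clic5 at 1368 and 2505 in Control and 312 and 522 in Fracture. Has1 and Clic5 were at most 3.65 CPM in marker-supported cells. These genes were named after their values were seen. Among all kept cells with 50 or more Prg4 UMIs per 10000, the share with at least 3 Rgs5 UMIs was 5.95% and 12.96% in Control and 26.5% and 33.8% in Fracture.

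**Figure D1:**
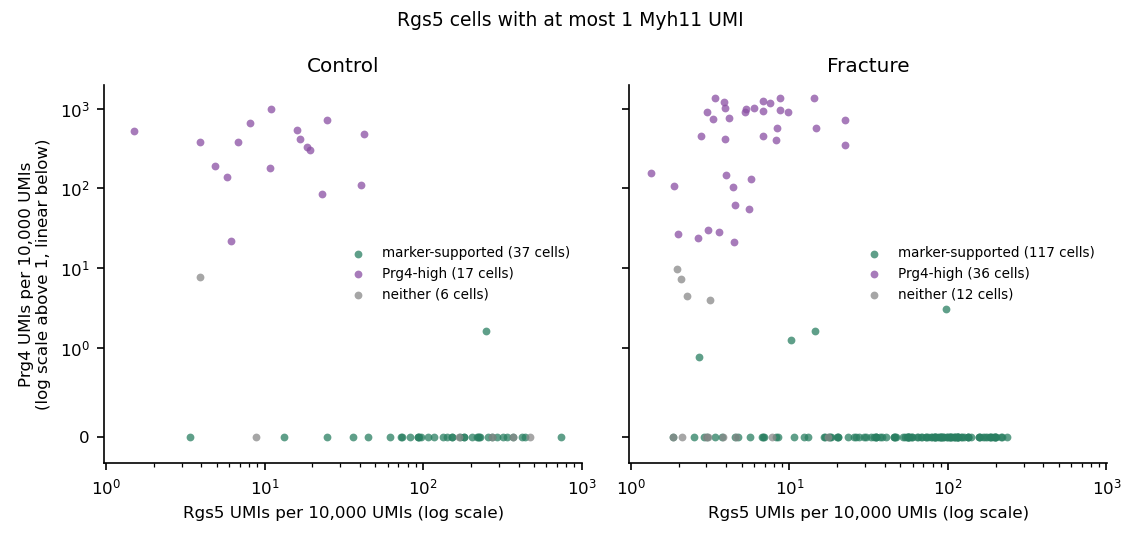
Rgs5 (horizontal axis, log scale) against Prg4 (vertical axis, log scale above 1 and linear below) in UMIs per 10,000, with 1 point for each of the 225 members, Control on the left and Fracture on the right. Marker-supported cells lie along the bottom toward high Rgs5, and the 53 Prg4-high cells form a separate cloud at low Rgs5.

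Npy1r, the neuropeptide Y receptor among the markers given for these cells, was not highest in them. It stood at 50.7 and 79.7 CPM in Control and 14.6 and 4.53 in Fracture among marker-supported members, against 294 and 266 in Control and 30.5 and 41.3 in Fracture in Myh11 smooth muscle cells, which held at least 3 Myh11 UMIs and met the same limits other than that on Rgs5. Pdgfrb was 1338 and 2013 in Control and 786 and 728 in Fracture in marker-supported members and 427 and 638 in Control and 581 and 619.8 in Fracture in smooth muscle cells. Smooth muscle cells also had Higd1b, at 189.7 and 319 CPM in Control and 321 and 380.4 in Fracture. Abcc9 was 1186 and 1415 CPM in marker-supported members of Control against 104 and 194 in smooth muscle cells. In Fracture it was 209.8 and 208.5 against 105.9 and 186.6. Npy1r, Pdgfrb, Higd1b and Abcc9 helped choose the marker-supported cells, so their levels there are a description. Acta2, a contractile gene whose level follows the Myh11 limit, was 1591 and 1455 against 18199 and 14123 CPM in Control.

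The limits cut through continuous ranges. Members with exactly 3 Rgs5 UMIs numbered 27, of which 33.3% had at least 2 of the 6 markers, while 37 cells just outside with 2 Rgs5 UMIs had 10.8%. With 10 or more Rgs5 UMIs, 84.5% of 155 cells had them. At the other limit, 63 members with 1 Myh11 UMI had 2 or more markers in 93.7%, and 53 cells just outside with 2 Myh11 UMIs in 90.6%, so cells on either side of the Myh11 limit carried the markers about as often. The 162 members without Myh11 had them in only 59.9%, and all 53 Prg4-high members were among these.

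The libraries held 56543151 to 89126291 UMIs and 28956 genes. Control tables ran down to barcodes with 1 to 3 UMIs, whereas the smallest Fracture barcode held 1929. Median UMIs per member were 3711 and 5510 in Control and 7574 and 9664 in Fracture, and the shallowest members held 776, 1029, 4346 and 4907, so a fixed number of UMIs was easier to reach for Rgs5, and harder to stay under for Myh11, in Fracture. The 2 libraries of a preparation differed by more than counting noise, with a chi-square per degree of freedom of 3.16 to 4.29. Libraries shared at most 23 kept barcodes, and no member barcode was shared between members of 2 libraries. Of the members, 15 also met a rule for blood cells, based on haemoglobin and leukocyte transcripts, and 3 were called doublets.

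The members' share of members plus Myh11 smooth muscle cells lay higher in both Fracture preparations. Members made up 6.40% and 9.41% of this sum in Control and 54.3% and 51.6% in Fracture, a difference of 45.0 percentage points. The groups did not overlap, and the two-sided exact permutation p was 0.33, the smallest that 2 against 2 preparations allow. With marker-supported members alone the shares were 4.15% and 5.67% in Control and 49.6% and 38.6% in Fracture. The smooth muscle cells in the same sum were 7.68% and 3.47% of non-blood cells in Control and 0.588% and 0.621% in Fracture. In a share of cells, more members and fewer smooth muscle cells cannot be told apart. As a share of non-blood cells, members stood at 0.547% and 0.3329% in Control and 0.685% and 0.662% in Fracture (0.440% ± 0.152 and 0.673% ± 0.0160, SD, n = 2, exact permutation p = 0.33). Marker-supported members were 0.338% and 0.196% against 0.562% and 0.392%. The blood rule was met by 6535 of 12714 and 2812 of 7902 other kept cells in Control. In Fracture it was 469 of 11785 and 546 of 12702. Among these were Adipoq marrow stroma cells, 397 of 1558 and 61 of 1172 in Control and 5 of 53 and 5 of 76 in Fracture. The 15 members that met the rule were left out of the shares of non-blood cells. Over all kept cells, members were 0.321% and 0.240% in Control and 0.691% and 0.649% in Fracture.

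Of all cells with at least 3 Rgs5 UMIs under the other limits (326, 161, 151 and 163 cells), 12.6% and 11.8% fell under the Myh11 limit in Control and 54.3% and 50.9% in Fracture. Rgs5 cells with at least 3 Myh11 UMIs had a median of 12 and 15 Myh11 UMIs in Control and 7 and 7 in Fracture, a description of a gene that the rule used, and Fracture cells were deeper (median 7390 and 8569 UMIs per Rgs5 cell against 4419 and 5762). Whether cells lost Myh11 or cells with much Myh11 became rarer cannot be told apart here. Prg4-high cells were 24.4% and 36.8% of members in Control and 14.6% and 28.9% in Fracture, which overlap.

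The share of members with a Top2a or Mki67 UMI lay higher in both Fracture preparations. After each cell was thinned to 1000 UMIs, Top2a or Mki67, both made by dividing cells, were detected in 5.56% and 0% of Control members and in 13.4% and 12.0% of Fracture members. The 0% was 0 of 19 cells, which allows a share of up to 15.8% with a detected UMI at this depth. The 5.56% was 2 of 36 after 5 shallower cells were left out. The groups did not overlap (difference 9.95 percentage points, exact permutation p = 0.33). Without thinning the shares were 12.2% and 5.26% against 34.1% and 28.9%, and in marker-supported cells thinned to 1000 UMIs they were 4.17% and 0% against 14.7% and 16.3%. Myh11 smooth muscle cells thinned to 1000 UMIs gave 2.19% and 1.64% in Control and 17.4% and 7.69% in Fracture. Over all other kept cells Top2a was 183 and 416 CPM in Control and 85.9 and 86.6 in Fracture. Free RNA of these genes was not tested. In a further setting each cell was thinned to 3000 UMIs first, and the limits were changed to any Rgs5 UMI and no Myh11 or Adipoq UMI. That set took in 346 cells, of which only 166 had 2 or more markers, and its share differed by -16.4 points. It differs from the members in its limits as well as in depth.

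**Figure D2:**
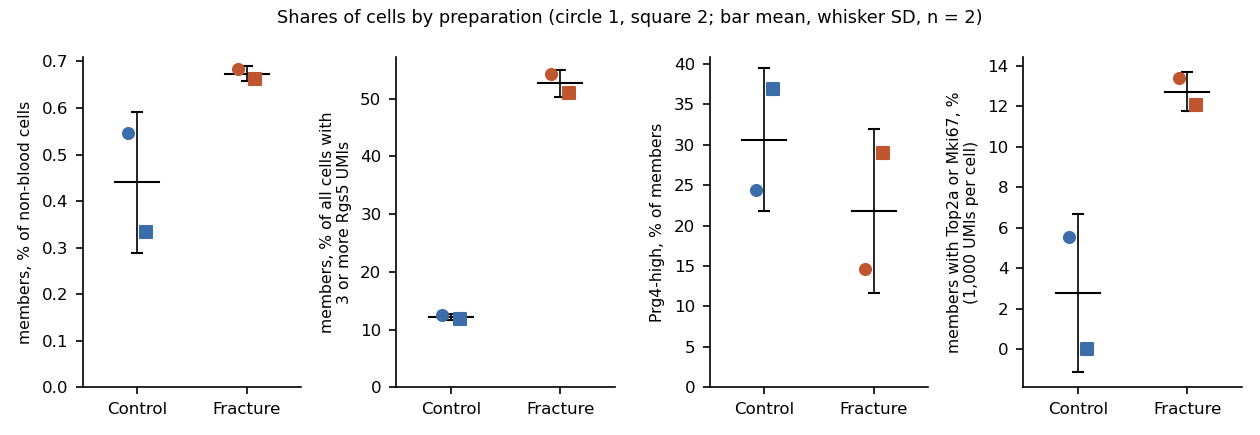
Shares in percent for each preparation (circle 1, square 2), with the group mean as a bar and the SD as a whisker (n = 2), for members of non-blood cells, members of all cells with at least 3 Rgs5 UMIs, Prg4-high cells of members, and members with Top2a or Mki67 at 1,000 UMIs per cell. The groups lie apart in every panel but that of Prg4-high cells, where they overlap.

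UMIs were summed over the members of each preparation, and Fracture was compared with Control by edgeR's quasi-likelihood test with TMM scaling, Benjamini-Hochberg adjustment over all genes tested and a call at an adjusted p under 0.05. CPM values that follow are scaled in the same way unless called plain, and log2 differences are Fracture over Control with their standard error (SE). Of 6646 genes tested, 157 were higher in Fracture members (2.36%) and 119 lower (1.79%), or 4.15% in either direction. For all 276 called genes both Fracture values lay on one side of both Control values, which was so for 55.7% of all genes tested. In the 154 marker-supported cells 226 of 5080 genes were higher (4.45%) and 182 lower (3.58%), or 8.03% in either direction, and 163 genes were called in both sets, all in the same direction, which is 59.1% of the member calls and 39.95% of the marker-supported calls. Calls in marker-supported cells rested on both Fracture preparations, since without Fracture-1 or Fracture-2 edgeR called 0 genes, with 276 and 233 genes at an unadjusted p under 0.05.

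Scaling by library totals moved the median of all genes by -0.12 and turned the split of calls to 131 higher and 165 lower. Limits on a fixed number of UMIs act differently in cells of different depth. The changed limits on cells thinned to 3000 UMIs, where any Rgs5 UMI was enough, ended the call of 55 of 84 named genes and turned 9. A minimum of 3000 UMIs per member ended 10 of 85. Marker-supported values, which leave out Prg4-high cells, are given beside the member values for some genes below. For the 6 genes that chose the marker-supported cells they are a description with no test. Median UMIs per marker-supported cell were 2458.5 and 3480 in Control and 7303.5 and 7906 in Fracture. At lower depth, detecting 2 markers takes higher marker levels. The part of this in falls of genes expressed along with the markers was not tested.

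Some pericyte genes fell after fracture, with the channel subunit Abcc9 in front. Abcc9, the sulfonylurea receptor that regulates the ATP-sensitive potassium channel of mural cells, was 630.2 and 498 CPM in the Control and 175 and 114 CPM in the Fracture members. Both Fracture values lay below both Control values, and the log2 difference was -1.97 (SE 0.29, edgeR adjusted p = 0.0179). In marker-supported cells it was 1282 and 1485 against 248 and 242. With each cell thinned to 1000 UMIs, Abcc9 was detected in 44.4% and 36.8% of Control and 17.1% and 15.7% of Fracture members, against 0% to 3.27% of cells meeting the blood rule. In members with at least 3000 UMIs the log2 difference was -1.80 (edgeR adjusted p = 0.0271), while members with no Myh11 UMI gave -1.69 (adjusted p = 0.109) and limits on thinned cells -0.93 (adjusted p = 0.183). In smooth muscle cells Abcc9 differed by 0.02, and the difference between the classes was -1.97 without a call (adjusted p = 0.100).

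Kcnj8, which encodes the pore of the same channel, was 228 and 119 CPM in Control and 190.3 and 141 in Fracture members, and the groups overlapped (log2 difference -0.10, SE 0.33, edgeR adjusted p = 0.889). With each cell thinned to 1000 UMIs, Kcnj8 was detected in 27.8% and 21.1% of Control and 14.6% and 13.3% of Fracture members, which did not overlap, and without thinning in 39.0% and 36.8% against 43.9% and 33.7%. The thinned share in cells meeting the blood rule was 0% to 0.950%. The difference between the 2 subunits was not tested. The genes are neighbours on the minus strand of chromosome 6 (GENCODE, GRCm38), Kcnj8 at chr6:142564837-142571614 and Abcc9 at chr6:142587862-142702315. Their promoters are printed because 1 gene of the pair was called and the other was not. Each runs from 250 bases before to 50 bases after the start in RefSeq (GRCm38.p6), at chr6:142702225-142702524 for Abcc9 and chr6:142571565-142571864 for Kcnj8, 5′ to 3′ on the minus strand. Capitals mark TGGGAA, the core of the site bound by RBPJ, the DNA-binding partner of Notch receptors, searched on both strands.

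Abcc9: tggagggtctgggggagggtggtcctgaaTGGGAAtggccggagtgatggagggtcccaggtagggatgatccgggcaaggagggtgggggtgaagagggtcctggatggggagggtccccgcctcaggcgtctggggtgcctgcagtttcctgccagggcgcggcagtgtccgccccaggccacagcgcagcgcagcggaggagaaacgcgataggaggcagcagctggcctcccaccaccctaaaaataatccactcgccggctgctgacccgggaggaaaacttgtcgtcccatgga
Kcnj8: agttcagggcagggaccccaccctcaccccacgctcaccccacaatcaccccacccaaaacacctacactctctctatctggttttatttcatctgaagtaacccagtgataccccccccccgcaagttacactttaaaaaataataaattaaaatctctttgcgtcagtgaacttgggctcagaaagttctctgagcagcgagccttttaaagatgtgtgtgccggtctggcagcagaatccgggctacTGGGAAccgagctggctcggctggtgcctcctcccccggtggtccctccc

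Each promoter holds 1 match, and so do 25.6% of 32851 promoters of the same length, so the match is a description and not a site. Notch3, the Notch receptor of mural cells, was 863 and 659 CPM in Control and 367 and 285 in Fracture members. Both Fracture values were lower, with a log2 difference of -1.23 (SE 0.25, edgeR adjusted p = 0.0437). The call was lost without Fracture-1 (-1.36, adjusted p = 0.0578), without Fracture-2 (-0.99, adjusted p = 0.217) and in members with at least 3000 UMIs (-0.81, adjusted p = 0.120). In smooth muscle cells Notch3 differed by -0.99 (edgeR adjusted p = 0.0352), and its difference between the classes was not called.

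Steap4, a metalloreductase of the cell surface, was 964 and 533 CPM in Control and 289.9 and 190.2 in Fracture members, again without overlap (log2 difference -1.65, SE 0.35, edgeR adjusted p = 0.0465). Leaving out Fracture-2 ended the call (-1.31, adjusted p = 0.118), and a minimum of 3000 UMIs gave -1.49 (adjusted p = 0.0531). Its fall was larger in marker-supported than in smooth muscle cells, by a class-by-group difference of -1.66 (edgeR adjusted p = 0.0373). Of the 13 tested genes in a list of pericyte identity that neither the rule nor the choice of marker-supported cells used, Steap4 fell, 1 rose and 11 were not called, beside 1.79% of all genes lower and 2.36% higher. Their median log2 difference was -0.45 against 0.02 over all genes. The one that rose was Des, the intermediate filament desmin of contractile cells, from 106 and 112 to 254 and 233 CPM (1.16, SE 0.24, edgeR adjusted p = 0.0459), and it was not called in marker-supported cells (0.59, adjusted p = 0.289) or without Fracture-1 (1.16, adjusted p = 0.126) or Fracture-2 (1.28, adjusted p = 0.106).

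The levels of the defining genes, given without a test, lay lower in Fracture for most. Rgs5 was 10300.5 and 7072 CPM in Control members and 6306 and 3549 in Fracture members. Pdgfrb was 731 and 722 in Control and 664 and 442 in Fracture, and Higd1b 185 and 196 in Control and 145 and 119.8 in Fracture. In marker-supported cells, genes of the list that had no part in the choice and fell included Steap4 (-2.14), the ADP-ribosyltransferase Art3 (-1.53), the transcription factor Ebf1 (-0.98) and the G protein regulator Rgs4 (-1.33), with edgeR adjusted p from 0.00343 to 0.0327, and none rose. The choice by detected markers acted on shallower cells in Control, and its part in these falls was not tested. Ndufa4l2, a mitochondrial protein of pericytes, was 865 and 962 CPM in Control and 1055 and 997 in Fracture marker-supported cells and was not called.

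**Figure D3:**
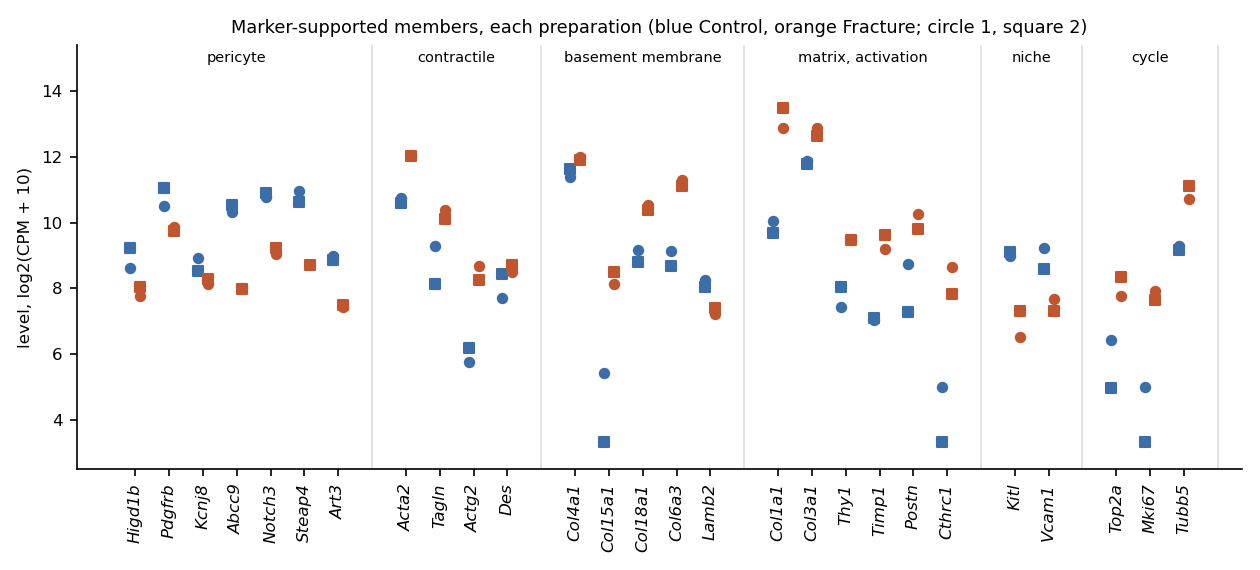
Level of 27 genes in the marker-supported members as log2(CPM + 10), with 1 point per preparation (blue Control, orange Fracture, circle 1, square 2). Abcc9, Steap4, Art3, Kitl and Vcam1 sit lower in both Fracture preparations and Acta2, Actg2, Col15a1, Col6a3, Col1a1 and Timp1 higher, while the points of Des lie close together. Abcc9, Kcnj8, Notch3, Pdgfrb and Higd1b helped choose these cells, so their levels are a description with no test.

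The smooth muscle actins Acta2 and Actg2 rose in members, and for Acta2 the direction was opposite over all Rgs5 cells. Acta2, the actin of vascular smooth muscle, was 921 and 539.7 CPM in Control and 3046 and 2271 in Fracture members. Both Fracture preparations were higher, with a log2 difference of 1.86 (SE 0.31, edgeR adjusted p = 0.0255), and in marker-supported cells it was 1719.7 and 1527 against 4290.0 and 4171 (1.38, edgeR adjusted p = 0.0095). Over all Rgs5 cells with any amount of Myh11, Acta2 fell instead (-0.67, SE 0.15, edgeR adjusted p = 0.0298). The direction turned with the Myh11 limit, and with a limit of 0 Myh11 UMIs the rise was 1.07 and no longer called (adjusted p = 0.0889).

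Actg2, the gamma actin of visceral smooth muscle, rose under all 3 definitions. It went from 21.2 and 21.03 to 294 and 156 CPM in members (3.39, SE 0.53, edgeR adjusted p = 0.0212), and it rose by 3.01 over all Rgs5 cells and by 3.55 in smooth muscle cells. The actin-binding protein Tagln was 365 and 91.1 CPM in Control and 957 and 651 in Fracture members, not called (1.77, adjusted p = 0.0999), and was called higher in marker-supported cells (1.40, adjusted p = 0.0446). Of 16 contractile genes tested in members, 2 rose and none fell, beside 2.36% and 1.79% of all genes, whereas 1 rose and 18 fell of 22 over all Rgs5 cells, where 11.3% of all genes tested were higher and 11.4% lower, and 1 rose and 12 fell of 22 in smooth muscle cells, against 8.88% and 7.69% of all genes. Myh11 is counted among the tested genes, and in members and smooth muscle cells its own limits leave it no test. The other highly expressed members of the list, Myl6, Cald1 and Tpm2, were not called in members.

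Against Myh11 smooth muscle cells of the same preparations, the fracture effect on some contractile genes differed by class. The class-by-group term of edgeR, with the preparation as a block, was 2.43 for Acta2 (SE 0.34, adjusted p = 0.00655), 3.04 for Tagln (0.00655), 2.31 for the myosin light chain Myl9 (0.0346), 1.78 and 2.11 for the tropomyosins Tpm1 and Tpm2 (0.0255 and 0.023), and 2.06 for Csrp1 (0.0215), as members minus smooth muscle. In smooth muscle cells Tagln fell by 1.03 and Myl9 by 1.38. Of 9187 genes, 28 had a higher (0.305%) and 58 a lower (0.631%) effect in members, or 0.936% in either direction, and without the block 17 genes were called. For marker-supported members it was 49 of 8848 higher (0.554%) and 59 lower (0.667%), or 1.22%. Against Adipoq marrow stroma, 40 of 8985 genes had a higher (0.445%) and 105 a lower (1.17%) effect in members, or 1.61%. Nearly all of these stroma calls were lost without the block. The term was run with a minimum of 10 cells per sum, chosen after the data were seen, since Control-2 gave 19 members and the minimum set earlier was 20. The smooth muscle class was 600 and 183 cells in Control and 69 and 78 in Fracture, with a median of 2.69 and 64.3 Rgs5 UMIs per 10000 in Control and 93.8 and 84.8 in Fracture. Myh11 itself defines both classes, and the level of contractile genes such as Acta2 follows its limit. The terms for contractile genes therefore describe the classes as they were cut. The part of Myh11 and that of the make-up of the smooth muscle class in these differences were not tested.

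Of 12 tested genes of vasoactive receptors and cyclic GMP signalling, 2 fell and 10 were not called, beside 1.79% of all genes lower. In marker-supported cells, 4 of the 11 that had no part in the choice of cells fell (Gucy1a3, Pde5a, Mrvi1 and Rgs4), beside 3.58% of all genes. The prostaglandin receptor Ptger3 went from 164 and 196 to 28.7 and 45.7 CPM (-2.24, SE 0.32, edgeR adjusted p = 0.0176). Every Ptger3 UMI lay in Prg4-high cells, and marker-supported cells had none. Mrvi1, a target of cyclic GMP kinase that restrains calcium release, went from 207 and 105 to 52.9 and 39.5 (-1.80, SE 0.37, edgeR adjusted p = 0.0439). Mrvi1 fell in smooth muscle cells as well (-1.24, edgeR adjusted p = 0.0292). The Mrvi1 call was lost without Control-1 (-1.18, adjusted p = 0.0882) and without Fracture-2 (-1.51, adjusted p = 0.106), but in marker-supported cells the log2 difference of Mrvi1 was -2.15 (adjusted p = 0.0069). The endothelin receptor Ednra, at 164 and 182 CPM in Control and 139 and 109.9 in Fracture, was not called.

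Among 20 genes of Notch and vessel signalling, Notch3 and Efnb2 fell and none rose, beside 1.79% of all genes lower. Efnb2, the ephrin ligand found on arterial and mural cells, was 79.4 and 154 CPM in Control and 22.7 and 16.1 in Fracture members (-2.55, SE 0.44, edgeR adjusted p = 0.0289), and in marker-supported cells it missed the call (-1.99, adjusted p = 0.0537). Of its Control UMIs, 10 and 19 lay in Prg4-high cells and 5 and 3 in marker-supported cells. The Notch ligand Jag1 and the Notch target Heyl were not called, at 244 and 119 CPM in Control and 177 and 129.7 in Fracture and 180.1 and 126 CPM in Control and 127 and 119.8 in Fracture. The median over the list was -0.18.

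Most interstitial matrix genes and a few basement membrane genes rose. Of 18 basement membrane genes 3 rose and 1 fell, and of 26 genes of interstitial matrix and activation 17 rose and 1 fell, against 4.15% of all genes called in either direction. The median log2 difference of the matrix list was 1.70. In the basement membrane list, Col18a1, the source of endostatin, went from 281 and 161 to 1054 and 678 CPM (1.95, SE 0.34, edgeR adjusted p = 0.0304), the related Col15a1 from 42.4 and 7.01 to 211 and 246 (3.08, 0.0196), and Col6a3, a chain of the microfibril collagen VI, from 471 and 287 to 2356 and 1918 (2.48, 0.0145). All 3 were also called in marker-supported cells. The rises were not particular to members. In smooth muscle cells 22 of 26 matrix genes rose and 1 fell, and 11 of 19 basement membrane genes rose and 2 fell. Of all genes tested there, 8.88% were higher and 7.69% lower. The log2 differences of Col15a1 and Col6a3 were larger in smooth muscle cells, at 5.35 and 3.64, and that of Col18a1 was smaller, at 1.597.

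The main vessel collagen Col4a1 was 1451 and 1465 CPM in Control and 2935 and 1941 in Fracture members, with no overlap but no call (0.74, adjusted p = 0.139). Lamb2, a laminin chain of mature basement membranes, fell from 344 and 378 to 121 and 128 CPM (-1.53, SE 0.22, edgeR adjusted p = 0.0178). This call was lost without Fracture-1 (-1.43, adjusted p = 0.0724), without Fracture-2 (-1.52, adjusted p = 0.0717) and in marker-supported cells (-0.90, adjusted p = 0.0897). The laminin chain Lama2 was called only in marker-supported cells among these 2 sets, with 186 and 126 CPM in Control and 40.9 and 36.8 in Fracture (-2.05, adjusted p = 0.0271).

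Timp1, the inhibitor of matrix metalloproteinases, had 143 and 147 CPM in Control and 1277 and 1766 in Fracture members (3.39, SE 0.28, edgeR adjusted p = 0.00704). It was higher in both kinds of cell, at 3375 and 2606 plain CPM in Fracture Prg4-high cells against 199 and 158 in Control, and at 492 and 669 against 111 and 119.6 in marker-supported cells. Thy1, a surface glycoprotein of activated mural and stromal cells, went from 90.03 and 91.1 to 498 and 353 CPM (2.23, SE 0.30, edgeR adjusted p = 0.016). In plain CPM, Thy1 in Fracture was 593 and 603 in marker-supported cells, 0 and 15.5 in Prg4-high cells and 446 and 466 in smooth muscle cells, where it rose by 2.74 (edgeR adjusted p = 0.00883).

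The secreted proteins Postn and Cthrc1, both typical of remodelling tissue, rose from 212 and 56.1 to 926 and 683 CPM (2.53, edgeR adjusted p = 0.0371) and from 63.6 and 7.01 to 814 and 729.9 CPM (4.32, 0.0147). In plain CPM, Cthrc1 in Fracture was 334 and 186 in marker-supported cells, 1629.6 and 504 in Prg4-high cells and 4156 and 2562 in members with neither feature, so most of its UMIs lay outside marker-supported cells. Col3a1 had 3697 and 1984 CPM in Control and 8938 and 9823 in Fracture members (1.72, 0.0344), and in marker-supported cells its log2 difference was 0.92 (edgeR adjusted p = 0.027). Col1a1 rose from 1139 and 974 to 7348 and 13501 CPM (3.30, 0.0115), while all other kept cells, which include osteoblasts, held 35087 and 31308 plain CPM in Control and 25279.8 and 25673 in Fracture. Free collagen RNA taken up by droplets was not tested for Col1a1. For Col3a1 the other kept cells held 216 and 104 plain CPM in Control and 2838 and 2797 in Fracture, below the members in each preparation.

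The 1 matrix gene that fell was highest in the Prg4-high cells. Ctgf, a matrix protein induced by tension and TGF-beta, was 2124 and 2208 CPM in Control and 746 and 731 in Fracture members (-1.55, SE 0.20, edgeR adjusted p = 0.016). Prg4-high cells held 4761 and 3231 plain CPM in Control and 2057 and 1391 in Fracture. In marker-supported cells it stood at 197 and 167 CPM in Control and 368 and 203 in Fracture with the opposite sign and no call (0.63, adjusted p = 0.352). Fn1 likewise was 18684 and 18364 CPM in Control and 8935 and 12520.2 in Fracture in members and not called (-0.79, adjusted p = 0.117). In marker-supported cells Fn1 rose from 252 and 126 to 2887 and 1781 CPM (3.54, edgeR adjusted p = 0.00287). With cells thinned as for Abcc9, Fn1 was detected in 29.2% and 18.2% of these cells in Control and 66.2% and 63.3% in Fracture. In cells meeting the blood rule it was 17.5% and 5.76% in Control and 34.5% and 36.8% in Fracture. All other kept cells held 2513 and 1501 plain CPM in Control and 6385 and 6335 in Fracture. Free Fn1 RNA taken up by droplets was not tested.

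The fracture difference of 4 matrix genes was smaller in marker-supported members than in smooth muscle cells. The basement membrane and interstitial matrix lists hold 20 and 26 genes. Over all genes, 59 of 8848 (0.667%) had a called lower effect in marker-supported members. The class-by-group difference was -2.05 for Col3a1 (SE 0.25, edgeR adjusted p = 0.000209), -1.97 for Col6a1 (0.00134), -2.01 for Col5a1 (0.00623) and -2.42 for the microfibril protein Fbn1 (0.000372). Fbn1 rose by 2.64 in smooth muscle cells and differed by -0.01 in marker-supported members, where neither Fbn1 nor Col6a1 (0.20) was called. Over all members the same terms were -1.30, -1.39, -1.40 and -1.77, of which the last was called (edgeR adjusted p = 0.0255). Col1a1 and Thy1 showed no called class difference in either set.

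**Figure D4:**
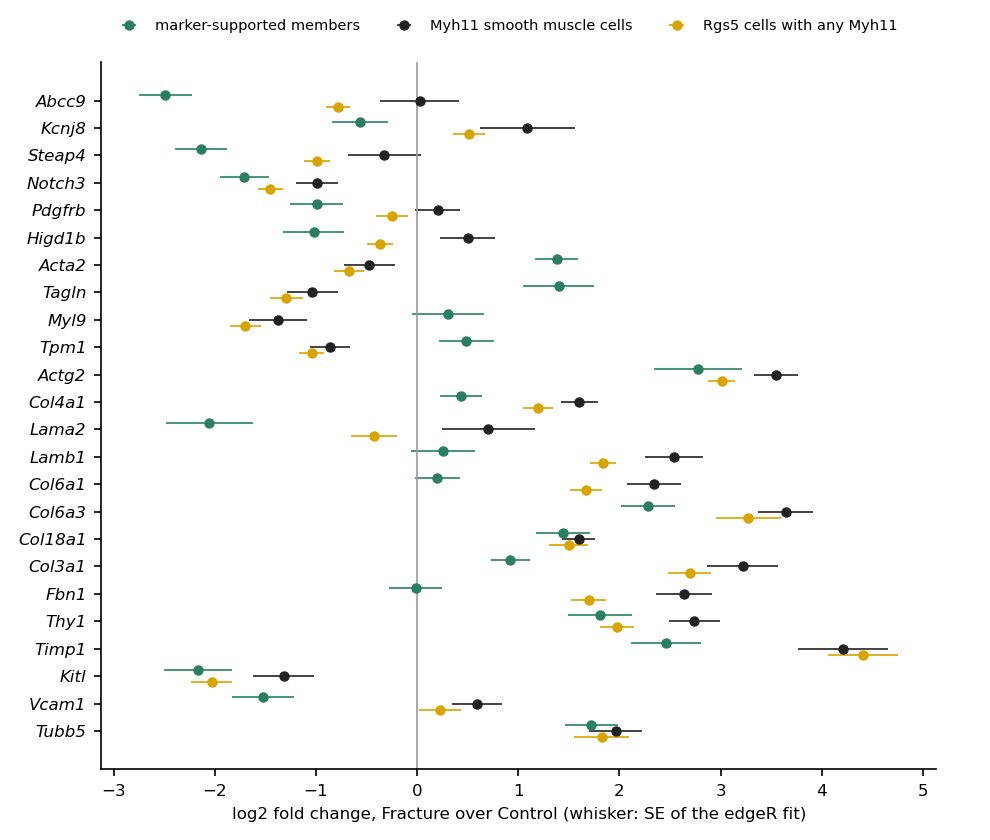
Log2 fold change (Fracture over Control, whisker the SE of the edgeR fit) of 24 genes in marker-supported members (green), Myh11 smooth muscle cells (black) and all Rgs5 cells with any Myh11 (yellow). Acta2, Tagln and Tpm1 lie right of 0 in the first and left of 0 in the other two, Abcc9, Steap4, Lama2 and Vcam1 are lowest in the first, and Actg2, Thy1 and Tubb5 rose in all of them. Abcc9, Kcnj8, Notch3, Pdgfrb and Higd1b helped choose the marker-supported cells, which were shallower in Control. Their values in those cells are a description with no test.

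The marrow niche factor Kitl fell and Spp1 rose, and the other 7 tested niche genes were not called in members, beside 4.15% of all genes called in either direction. Kitl, the stem cell factor, was 249 and 210.3 CPM in Control and 58.9 and 83.98 in Fracture members (-1.68, SE 0.27, edgeR adjusted p = 0.024). In marker-supported cells it was 493 and 544 against 81.8 and 149.9 CPM (-2.16, adjusted p = 0.00982), and it fell in smooth muscle cells as well (-1.32, adjusted p = 0.04). Without Fracture-1 the member call was lost (-1.39, adjusted p = 0.0808). Cxcl12, the chemokine that holds blood stem cells in the marrow, was 180.1 and 112 CPM in Control and 131 and 429 in Fracture, overlapped between groups and was not called.

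Spp1, the secreted phosphoprotein osteopontin, went from 334 and 112 to 10658 and 2775 CPM (4.88, SE 0.76, edgeR adjusted p = 0.0209). The Fracture preparations differed from each other by more than the Control ones, and the other kept cells held 3986 and 2781 plain CPM in Control and 11845 and 10897 in Fracture, more than the members in every preparation. The adhesion molecule Vcam1 was 297 and 126 CPM in Control and 140.4 and 95.1 in Fracture in members and not called, and fell in marker-supported cells (-1.53, edgeR adjusted p = 0.0234).

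Of 11 tested genes of chemokines and inflammation 5 rose and none fell, beside 2.36% of all genes higher, with 4 of the 11 at 0 UMIs in Control. Ccl2, which attracts monocytes, had no UMI in either Control preparation and 124 and 268 CPM in Fracture, at least 20.6-fold higher against a floor of 3 UMIs over the Control group. The acute phase protein Saa3 had none in Control and 220.5 and 1042 CPM in Fracture, at least 68.2-fold higher, and Ccl7 none against 42.3 and 70.4, at least 5.86-fold higher. Their edgeR adjusted p values were 0.0255, 0.0361 and 0.0496. The Ccl7 call was lost under 8 of the alternative settings, among them without Fracture-1 (adjusted p = 0.153), without Prg4-high members (0.0649) and without called doublets (0.0515). These floors cover counting error only.

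In plain CPM, Saa3 in Fracture was 266 and 1020.0 in marker-supported cells, 0 and 3.09 in Prg4-high cells and 0 and 2910.2 in the 2 and 10 members with neither feature. Saa3 was not particular to members, at 552 and 29.9 plain CPM in smooth muscle cells and 17.3 and 2159 in Adipoq marrow stroma of Fracture, and its level differed widely between the preparations. Ccl2 in Fracture was in both kinds of member, at 139 and 102 plain CPM in marker-supported and 27.2 and 529 in Prg4-high cells. Cxcl1, a neutrophil chemokine with 1 UMI in Control, went from 5.30 and 0 to 113 and 158 CPM (ratio 42.0, counting interval 7.45 to 1666, edgeR adjusted p = 0.016) and Socs3, the feedback inhibitor of cytokine signalling, from 101 and 28.04 to 307 and 245 (2.01, 0.0487). Over all members Il6 was 68.8 and 0 CPM in Control and 83.1 and 39.5 in Fracture, which overlap, and was not called (adjusted p = 0.694). It was called in marker-supported cells, which held none of the 13 Il6 UMIs of Control-1 members, at 118 and 63.1 CPM in Fracture (edgeR adjusted p = 0.0492), at least 3.89-fold higher.

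Of 21 tested cell cycle genes 13 rose and none fell, beside 2.36% of all genes higher, with all 21 differences above 0 and a median of 3.02. Cdk1, the kinase of mitosis, had no UMI in Control members and 168 and 212 CPM in Fracture, at least 19.5-fold higher (edgeR adjusted p = 0.0137). With Rgs5 of at least 2 UMIs, the log2 difference of Cdk1 was 2.60 without a call (adjusted p = 0.0882), and of the 13 only Ube2c was still called. Mki67 went from 21.2 and 0 to 174 and 169 CPM (3.81, SE 0.57, edgeR adjusted p = 0.0195), Top2a from 42.4 and 7.01 to 165 and 259 (2.97, 0.0326) and the tubulin Tubb5 from 413 and 421 to 1361 and 1659.8 (1.86, 0.0147). All Control members together were 60 cells, which limits what their counts can show. With the changed limits on thinned cells none of the 13 was called, and Mki67 (-1.43), Top2a (-1.11), Stmn1, Birc5, Cenpa and Tpx2 turned. That set of 346 cells holds 58 meeting the blood rule.

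In all members, 2 of 14 genes of glycolysis and hypoxia, none of 15 secretory genes and 1 of 20 early stress genes were called. Of all genes, 4.15% were called. Of 14 genes of glycolysis and hypoxia Ndrg1 and Adm fell and none rose, beside 1.79% of all genes lower, from 138 and 91.1 to 21.1 and 23.5 CPM for the hypoxia-induced Ndrg1 (-2.37, SE 0.36, edgeR adjusted p = 0.0196) and from 31.8 and 35.05 to 3.02 and 3.70 for the vasodilator adrenomedullin (-3.19, 0.0289). Adm rested on 6 and 5 UMIs in Control and 2 and 3 in Fracture members. Of these, 3 and 2 in Control and 2 and 2 in Fracture lay in marker-supported cells. In marker-supported cells 3 of 11 tested rose, the glycolytic enzymes Gapdh (1.34, edgeR adjusted p = 0.0299), Pkm (1.42, 0.0289) and Ldha (1.30, 0.0365), and Ndrg1 fell, with a median of 0.79 over the list, beside 4.45% of all genes higher and 3.58% lower. None of 15 secretory genes was called in members, with the chaperone Hspa5 at 747 and 799 CPM in Control and 705 and 745 in Fracture, against 1598 genes of 6646 at an unadjusted p under 0.05. Of 20 immediate early and heat shock genes only Hspa1b was called in members, from 111 and 105 to 28.7 and 34.6 CPM (-1.76, 0.0326), which is near the 4.15% of all genes called, and it was not called in marker-supported cells. Fos was 619.6 and 182 CPM in Control and 1158 and 951 in Fracture in members.

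Beyond the lists, the largest rises among genes at least as high in members as in other cells included Dlk1 and Tnfaip6. Dlk1, a Notch-related inhibitor of differentiation, had no UMI in Control and 95.1 and 109 CPM in Fracture members, at least 10.4-fold higher (edgeR adjusted p = 0.016), all of it outside the Prg4-high cells. In smooth muscle cells Dlk1 also rose, from 2.75 and 5.51 to 213 and 168 plain CPM (5.68, edgeR adjusted p = 0.00714). Tnfaip6, a hyaluronan-binding protein of inflamed tissue, had none in Control and 139 and 228 CPM in Fracture, at least 19.1-fold higher (0.0164), and stood at 482 and 464 plain CPM in Prg4-high against 21.9 and 20.4 in marker-supported cells. The other leading rises were the cell cycle genes 2810417H13Rik, Cdca8, Hmmr, Lmnb1 and Ube2c, and the microtubule-associated kinase Dclk1 with 42.3 and 59.3 CPM in Fracture and none in Control. With Rgs5 of at least 2 UMIs, 2810417H13Rik, Cdca8, Hmmr and Lmnb1 were not called (adjusted p from 0.0584 to 0.183). The Lmnb1 call was also lost without Fracture-1 (adjusted p = 0.153) and without Fracture-2 (0.226), and the Dclk1 call without Fracture-1 (0.307), without Prg4-high members (0.0697) and at 3000 UMIs or more (0.0546).

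The largest falls divided by kind of cell. Ntrk2, the receptor of brain-derived neurotrophic factor, went from 95.3 and 63.1 to 7.55 and 3.70 CPM (-3.83, SE 0.51, edgeR adjusted p = 0.016) and the class I-like molecule H2-M9 from 281 and 435 to 46.8 and 14.8 (-3.55, 0.016). Both had no UMI in Prg4-high cells, and the Ntrk2 call was lost without Fracture-2 (-3.28, adjusted p = 0.0995). In marker-supported cells Ntrk2 was 197 and 188 CPM in Control and 10.8 and 7.89 in Fracture. Dapk1, a kinase of cell death, fell from 143 and 28.04 to 6.04 and 2.47 CPM (-4.40, 0.0361). Its Control level lay mainly in marker-supported cells, at 296 and 41.8 CPM, which rest on 27 and 2 UMIs. All other kept cells held 106 and 60.2 plain CPM of Dapk1 in Control and 6.35 and 7.08 in Fracture. The Dapk1 call was lost without Fracture-2 (-3.72, adjusted p = 0.0652).

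In contrast, Slurp1, Hhip, Clic5, Gprc5a, Cth and Sema3e had no UMI in marker-supported cells and belonged to the Prg4-high cells. Slurp1, a secreted Ly6-family protein, was 323 and 347 plain CPM in Control and 0 and 0 in Fracture Prg4-high cells, and over members 59 UMIs in Control stood against 1 in Fracture (ratio 285, counting interval 49.3 to 11458, edgeR adjusted p = 0.00704). Hhip, a decoy receptor of hedgehog proteins, was 224 and 211 plain CPM in Control and 0 and 6.18 in Fracture, and Sema3e, a guidance factor, 659 and 337 in Control and 136 and 98.9 in Fracture. Scara5 and 2210407C18Rik had at most 19.9 CPM in marker-supported cells. The laminin receptor Itga6 went from 1107 and 659 to 54.4 and 34.6 CPM (-4.32, 0.00704), but in marker-supported cells its Control level rested on 1 preparation, with 1753 and 0 CPM. The fall of Itga6 was not particular to members. All other kept cells held 614 and 252 plain CPM in Control and 51.3 and 52.4 in Fracture.

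Transcripts of other cell types also differed between the groups. The summed level of 10 cartilage genes was 1438 and 185 plain CPM in Control members and 6885 and 5223 in Fracture members, and 28869 and 15394 in Control and 84822 and 82400.4 in Fracture over all other kept cells, which is 1.20% to 8.12% of their level. Among the genes of the 10 that the rule does not use, Col2a1, Col9a2 and Col10a1 rose in members, beside 2.36% of all genes. At most 1 of the 10 was at 0 in a preparation. In marker-supported cells the sum was 547 and 239 plain CPM in Control and 8408 and 4785 in Fracture. Among the genes that the rule does not use, Col2a1, Col10a1, Col11a1 and Comp rose there, beside 4.45% of all genes. Col10a1, the collagen of hypertrophic cartilage, went from 42.4 and 7.01 to 3308 and 1081 CPM. Acan, Hapln1 and Matn3 were limited by the rule itself and carry no test. The part of cartilage RNA in the matrix results was not tested.

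Of 6 blood genes tested 4 haemoglobin genes rose and Pf4 and Mcpt8 fell, where, as for the lists that follow, 2.36% of all genes were higher in members and 1.79% lower. Haemoglobin Hbb-bs went from 10.6 and 84.1 to 5552 and 2417 CPM, and in marker-supported cells it was 10.95 and 105 in Control and 7861 and 224 in Fracture, so 1 Fracture preparation held most of it. The platelet gene Pf4 went from 551 and 105 to 10.6 and 12.3 CPM and the basophil gene Mcpt8 from 477 and 28.04 to 0 and 1.23. The 8 osteoblast genes, of which the rule limits Bglap and Bglap2, summed to 1129 and 848 plain CPM in Control and 1283 and 2176 in Fracture. Of the tested genes that the rule does not limit, Ibsp, Col22a1 and Alpl, only Ibsp rose, from 74.1 and 21.03 to 858 and 1547 CPM. The 8 fibroblast genes, which include Prg4, summed to 21271 and 24709 plain CPM in Control and 11984 and 28919 in Fracture members, against 70.9 and 19.9 in Control and 1423 and 821 in Fracture for marker-supported cells, and of 7 tested in members only Mfap5 rose. In marker-supported cells 3 of 4 tested rose (Dpt, Mfap5 and Dcn), beside 4.45% of all genes, with Dcn going from 43.8 and 20.9 to 1130.1 and 718 CPM and no UMI of Dpt or Mfap5 in Control. The 8 endothelial genes, among them Cdh5, which the rule holds at 0, summed to 196 and 123 plain CPM in Control and 60.8 and 61.1 in Fracture with 2 to 4 of them at 0, and glial and skeletal muscle genes to at most 75.2 and 30.9 CPM. The 1 endothelial and 1 glial gene tested were not called, and no muscle gene was tested in members. The part of these transcripts in the results was not tested.

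Haptoglobin, the gene Hp of the marrow stroma list, rose in members. It went from 21.2 and 28.04 to 764 and 939.8 CPM in members (5.12, SE 0.33, edgeR adjusted p = 0.00451), while the Adipoq marrow stroma held 4291 and 3942 plain CPM in Control and 2876 and 4367 in Fracture, which overlap. All other kept cells together held 372 and 419 plain CPM in Control and 81.5 and 111 in Fracture, with 1558 and 1172 stroma cells among them in Control and 53 and 76 in Fracture. It was 1 of 4 tested genes of that list, and the other 3 were not called. In smooth muscle cells Hp rose by 4.66 (adjusted p = 0.0198). All 8 genes of that list, of which the rule limits Adipoq, summed to 851 and 622 plain CPM in Control members and 1598 and 1698 in Fracture members, against 4448 and 4868 in Control and 349 and 409 in Fracture over all other kept cells.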

How the data were processed

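Single-cell RNA was measured in 8 Chromium 3′ V3 libraries of mouse bone stromal cells, 2 libraries for each of 4 preparations. The authors deposited UMI counts per gene and cell barcode. Per the submitters' processing notes, bcl2fastq 2.19.1.403, UMI-tools 1.0.0, STAR 2.7.3a, Subread featureCounts 1.6.4 and mm10 were used, while the methods name STARsolo, Gencode and EmptyDrops for the study, and which of these made the counts is not given in the sources used here. The gene coordinates and promoters came from annotations of GRCm38.

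Barcodes with 500 to 6000 genes and at most 25% mitochondrial UMIs were kept (45328 of 48903). Doublets were marked with scrublet in scanpy 1.11.5 (expected 6%, 805 of the kept cells, 1.78%) and not removed. The 15 members and all other cells that met the blood rule held haemoglobin at 500 or more UMIs per 10000 or at least 5 UMIs of leukocyte genes. Myh11 smooth muscle cells held at least 3 Myh11 UMIs with no limit on Rgs5, and Adipoq stroma at least 3 Adipoq and at most 1 Rgs5 UMIs.

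UMIs were summed per preparation and tested with edgeR 4.0.16 (R 4.3.3, TMM, filterByExpr, quasi-likelihood test, Benjamini-Hochberg adjustment, threshold 0.05), with DESeq2 1.42.0 as an alternative. Class-by-group terms were fitted with the preparation as a block. For shares the two-sided exact permutation test over preparations was used, whose smallest p at 2 against 2 is 0.33. Intervals (95%, exact) and floors (3 UMIs over a group) cover counting error only. The steps were tested on simulated data.

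The members and the gene lists were chosen with earlier results of these data known. Named genes were the called genes and the 4 most expressed genes of each list, plus the 12 largest rises and 12 largest falls among called genes that did not overlap between groups, reached 50 CPM and stood at least as high in members as in other kept cells. The marker-supported subset, the Prg4 limit of 10 UMIs per 10000, scaling by library totals, all Rgs5 cells with any Myh11, removal of blood-rule cells and the minimum of 10 cells per sum were added after the data had been seen. Genes of the rule were left out of the 12 largest rises and 12 largest falls, while Acan stayed among the called genes of the lists. A gene of the pericyte list is not reported here.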

Additional observations from a re-analysis of the deposited data

Results flagged for a closer look

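The fracture effect differed between members and Myh11 smooth muscle cells for 86 of 9187 genes tested (0.936%), and between members and Adipoq marrow stroma for 145 of 8985 genes tested (1.61%), by an edgeR interaction term at an adjusted p under 0.05. Without the block on preparation most of the smooth muscle calls and nearly all of the stroma calls were lost. The 5 largest differences in each direction are given here for both classes, as members minus the other class on the log2 scale, with plain CPM per preparation. Where Control members had no UMI the fitted size depends on the prior count and is not a bound.

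Against smooth muscle cells, the larger effect was in members for Smim5 (9.16), the RhoA exchange factor Net1 (8.51), the small proteoglycans Ogn (6.54) and Fmod (5.51), and 2900026A02Rik (4.61), with adjusted p from 0.00078 to 0.04. Smim5 and Net1 had no UMI in Control members and at most 16.6 CPM in Fracture members, while smooth muscle cells held 119 and 116 CPM of Net1 in Control and 27.3 and 42.7 in Fracture. Ogn went from 15.5 and 0 to 105 and 119 CPM in members and from 316 and 145 to 41.7 and 32.8 in smooth muscle cells, and its difference was 7.34 in marker-supported cells (edgeR adjusted p = 9.25e-06). Fmod was no longer called in marker-supported cells (3.50, edgeR adjusted p = 0.103).

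The effect was lower in members for Ahnak2 (-5.90), Cd109 (-5.49), the urokinase receptor Plaur (-5.23), the retinoic acid enzyme Aldh1a3 (-5.05) and the matrix protein Matn4 (-4.76). Ahnak2, Plaur, Aldh1a3 and Matn4 had no UMI in Control marker-supported cells and Cd109 at most 19.9 CPM, so their Control level in members, 191 and 239 CPM for Ahnak2, lay outside those cells. None of the 4 with a marker-supported fit was called there, with edgeR adjusted p from 0.843 to 0.947. The difference there kept its sign for Cd109 (-1.09) and turned for Ahnak2 (2.33), Plaur (1.58) and Matn4 (3.78). Aldh1a3 was not tested in that fit.

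Against Adipoq marrow stroma, the larger effect was in members for Ccl2 (11.39), Cx3cl1 (11.09), Cxcl9 (10.71), the complement protein C3 (10.40) and the cell cycle gene 2810417H13Rik (10.38), and each had no UMI in Control members. Stroma held Ccl2 at 131 and 169.9 CPM in Control and 150.3 and 234 in Fracture, and C3 at 495 and 502 in Control and 158 and 484 in Fracture. The same 5 were called in marker-supported cells. The stroma sums rest on 53 and 76 cells in Fracture against 1558 and 1172 in Control.

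The effect was lower in members for the growth factor binding protein Igfbp6 (-6.30), Ntrk2 (-6.29), Anxa8 (-6.25), Fn1 (-6.19) and S100a4 (-6.16). In marker-supported cells the differences of Ntrk2, Fn1 and S100a4 were -6.71, -1.54 and -2.74 and called. Igfbp6 (-1.24, edgeR adjusted p = 0.874) and Anxa8, whose sign turned (4.14, edgeR adjusted p = 0.926), were not called. Anxa8 had no UMI in Control marker-supported cells and 387 and 828 CPM in Control members.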

How the results depend on the processing

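The named genes that were called numbered 86, and the uncalled ones are not counted here. Of 1621 values for these 86 genes under 20 alternative settings, 1370 kept their direction and their side of the threshold. A further 238 kept the direction without a call, and 13 turned. The 2 preparations per group, the 60 Control members and the greater depth of Fracture cells limit every comparison, and the cause of each change was not tested. The settings with marker-supported members, without Prg4-high members, with any Myh11, with library totals and without blood-rule cells were chosen after seeing the data.

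The limits on cells thinned to 3000 UMIs were changed too, to any Rgs5 UMI and no Myh11 or Adipoq UMI. They turned 2810417H13Rik (-0.86), Cdca8 (-0.60), Lmnb1 (-0.48), Top2a (-1.11), Mki67 (-1.43), Birc5 (-0.34), Cenpa (-0.021), Tpx2 (-0.038) and Stmn1 (-1.79). Rgs5 cells with any Myh11 turned Acta2 (-0.67) and Ctgf (0.50), and Ctgf was 0.63 in marker-supported members and 0.99 without Prg4-high members.

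The difference in the share of non-blood cells, 0.233 points, became 0.725 with limits on thinned cells, 0.403 in members with at least 3000 UMIs and 0.389 over all kept cells, and 0.126 to 0.340 without 1 preparation. The difference in the share of members plus Myh11 smooth muscle cells, 45.0 points, became 47.8 with Rgs5 of at least 2 UMIs, 40.9 with at least 5, 55.9 on thinned cells, 37.7 with no Myh11, 39.2 with 2 of 6 markers or in marker-supported members, 47.8 with at least 3000 UMIs and 41.2 without Prg4-high members, and 43.5 to 46.5 without 1 preparation. The cycling difference, 9.95 points, became 22.8 without thinning, 14.9 at 3000 UMIs, 13.3 with Rgs5 of at least 5 UMIs, -16.4 with limits on thinned cells, 13.7 with no Myh11, 14.0 with 2 markers, 13.1 with at least 3000 UMIs, 14.8 without Prg4-high members and 13.9 in marker-supported members, and 7.18 to 12.7 without 1 preparation.

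Genes higher in members, 157, became 359 with 8 libraries as samples, 76 with no Myh11, 77 with Rgs5 of at least 2 UMIs, 1169 with any Myh11, 85 on thinned cells and 692 with no filter, and 111 to 629 without 1 preparation. Genes lower, 119, became 306, 45, 54, 1175 and, with no filter, 375, with 68 in DESeq2, 182 in marker-supported members and 65 to 455 without 1 preparation. In marker-supported members, 226 higher became 107 in DESeq2, 142 with library totals and 613 with no filter, and 0 to 432 without 1 preparation, and 182 lower became 52 in DESeq2 and 0 to 306 without 1 preparation. Where a group is left with 1 preparation, it is assumed to vary like the others.

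The numbers 1 and 2 of the preparations come from the labels and pair nothing, and same-numbered preparations deviated with a correlation of 0.15 in members and 0.066 in marker-supported members. A replicate block on the number gave 183 higher and 136 lower genes in members, and 381 and 293 in marker-supported members. Without the block on preparation, the 86 genes that differ from smooth muscle cells became 17 and the 145 that differ from stroma became 1, with 1031 and 1157 genes at an unadjusted p under 0.05. Without 1 preparation these were 105 to 298 and 61 to 220, without Prg4-high members 55 for smooth muscle, and in marker-supported members 243 for stroma.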
